A study of Homo sapiens with 4 samples.

Results

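The HOX cluster genes are the 39 homeobox genes of the HOXA, HOXB, HOXC and HOXD clusters. They were taken here as every gene of the count table whose symbol is HOXA, HOXB, HOXC or HOXD followed by digits only, which gave 39 of 60612 genes. Read counts came from 4 RNA sequencing libraries of the MYCN-amplified neuroblastoma line IMR-32, an established human cell line. Cells were stably transduced with a short hairpin RNA that doxycycline switches on, a negative control sequence in 2 libraries (shControl) and a sequence against NeuroD1 in the other 2 (shNeuroD1), and the stated doxycycline treatment was 1 µg/mL for 48 h. NeuroD1 is a neurogenic basic helix-loop-helix transcription factor, and the comparison asks which transcripts differ when it is depleted. The model is a single cell line at a single time. The titles number the knockdown libraries with the very names that the study gives to its different NeuroD1 hairpins, while column names in its supplement place both libraries under a single hairpin. The titles were read here as replicate numbers, so hairpin and replicate cannot be told apart, nor can a property of a hairpin and loss of NeuroD1. The labels do not say whether libraries of a group came from separate cultures, so p-values measure only the spread between these libraries.

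HOX proteins are transcription factors that give cells their position along the body axis. The genes of a cluster lie side by side in the order in which they act, from the 3′ end (low paralog numbers, hindbrain and neck) to the 5′ end (high paralog numbers, lower trunk and limbs), and genes with the same number in different clusters are paralogs that arose by duplication of an ancestral cluster. Retinoic acid opens the clusters from the 3′ end in embryonic cells, trithorax proteins keep active HOX genes active, and PBX, MEIS and PKNOX proteins bind DNA together with HOX proteins. Neuroblastoma arises from the sympathetic lineage of the trunk neural crest, and HOXC9 is known as a gene of retinoic acid-driven differentiation in neuroblastoma cells.

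The clusters also encode microRNAs, of which the miR-196 family is known to act on HOX transcripts. The 5p mature forms of its members are shown because their seed finds a match in HOXC8, the HOX gene with the greatest difference between the groups. Sequences and positions are those of RefSeq on GRCh38.p14, and capitals mark the seed (bases 2 to 8). MIR196A2 lies in the HOXC cluster (chr12:53991762-53991783, plus strand), MIR196A1 in HOXB (chr17:48632532-48632553, minus strand) and MIR196B in HOXA (chr7:27169528-27169549, minus strand).
hsa-miR-196a-5p (MIR196A1 and MIR196A2): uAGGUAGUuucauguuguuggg
hsa-miR-196b-5p (MIR196B): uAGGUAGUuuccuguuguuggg
Both forms carry the same seed, AGGUAGU. Its complement ACTACCT, searched on the transcript strand only, was found in the 3′ UTR of 1369 of 19146 genes of GENCODE 29 (7.15%, taking the coding transcript with the longest 3′ UTR). It was found in 9 of the 39 HOX genes, and of the 9 HOX genes with enough counts to test, HOXC8 held it and the other 8 did not. The HOXC8 3′ UTR of 981 bases holds it at positions 128 (chr12:54011494-54011516) and 864 (chr12:54012230-54012252), shown with capitals for the match and with the bases around it.
HOXC8 3′ UTR, position 128: acactcacaactctaACTACCTg
HOXC8 3′ UTR, position 864: ataaatctttaacatACTACCTa
The seeds of the 12 mature forms that the RefSeq table lists in the clusters were searched, and others matched HOXC5, HOXC6 or HOXD9 among the tested genes. These include 3p forms of the miR-196 family, which have other seeds. Of these, miR-196a-1-3p matched HOXD9 and miR-196b-3p matched HOXC5. A seed match is a description of the sequence and was not tested as a target site. Libraries of polyadenylated RNA do not measure mature microRNAs. The precursor gene MIR196A1 had 0 counts in every library, and MIR196A2 had 0 and 0 counts in shControl against 2 and 0 in shNeuroD1. MIR196B has no exon base that another gene does not overlap, and its row says nothing. Of the 2 mature forms of MIR10A in HOXB, miR-10a-3p matched HOXC5 among the tested genes and miR-10a-5p matched none. The form miR-10a-5p, which has a different seed from miR-196, is shown for contrast.
hsa-miR-10a-5p (MIR10A, chr17:48579904-48579926, minus strand): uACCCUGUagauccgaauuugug
Its complement ACAGGGT was found in 2442 of the 19146 3′ UTRs (12.75%) and in 3 of the 39 HOX genes.

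The libraries held 14665210 to 16482463 counts, and NEUROD1 checked the labels. Its reads numbered 6174 and 6582 in shControl against 969 and 886 in shNeuroD1. Its level in shNeuroD1 was 14.6% of that in shControl (log2 fold change -2.77, SE 0.0504, edgeR adjusted p = 8.59e-29). Markers of sympathetic adrenergic neuroblastoma were present, with 8 of 10 at 1 CPM or more in all libraries (CPM is counts scaled to library size with TMM factors), and their summed level was 2215 to 2232 CPM in shControl and 1975 to 2006 CPM in shNeuroD1. Of the mesenchymal markers 3 of 7 reached 1 CPM in all libraries, PRRX1 was at 0, and the summed level was 188 to 193 CPM in shControl and 123 to 126 CPM in shNeuroD1. Of the Schwann cell markers 1 of 4 did, with summed levels of 5.03 to 5.15 CPM and 8.40 to 9.57 CPM, and none of 4 haematopoietic markers did, with CD3E and HBA1 at 0. The part of these shifts in the HOX results was not tested, and in bulk samples fewer cells of a type and less RNA per cell cannot be told apart.

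IMR-32 cells expressed the HOXC and HOXD clusters and left HOXA and HOXB almost without reads, in both groups alike. The 39 HOX genes together had 7317 counts over the 4 libraries, 58.7% of them in HOXC and 41.2% in HOXD. HOXA (chromosome 7, 27092993 to 27200106, minus strand) had 1 count over its 11 genes, a read of HOXA3 in shNeuroD1 replicate 2. HOXB (chromosome 17, 48528526 to 48729178, minus strand) had 7 counts over its 10 genes. HOXB2 had 1 count in each shControl library and 0 in each shNeuroD1 library, HOXB3 had 2 and 1 in shControl and 0 in each shNeuroD1 library, and HOXB13 had 2 in shNeuroD1 replicate 1 and 0 elsewhere. The other 17 of the 21 genes of both clusters were at 0 in every library, which allows up to 0.189 to 0.203 CPM per library (3 counts, counting error only). Rows of genes that have no exon base of their own were mostly at 0 in the whole table (93.5% of 1841), so only neighbours with exon bases of their own are counted here. Inside HOXA 8 such genes had 0 counts, and inside HOXB 15 had 2 counts, both of HOXB-AS1. The deposited FPKM tables of assembled transcripts (fragments scaled for length and library size) gave the same picture, with 0 transcript starts listed in HOXA or HOXB in any library, 5 to 7 per library in HOXC and 9 to 14 in HOXD.

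**Figure D1:**
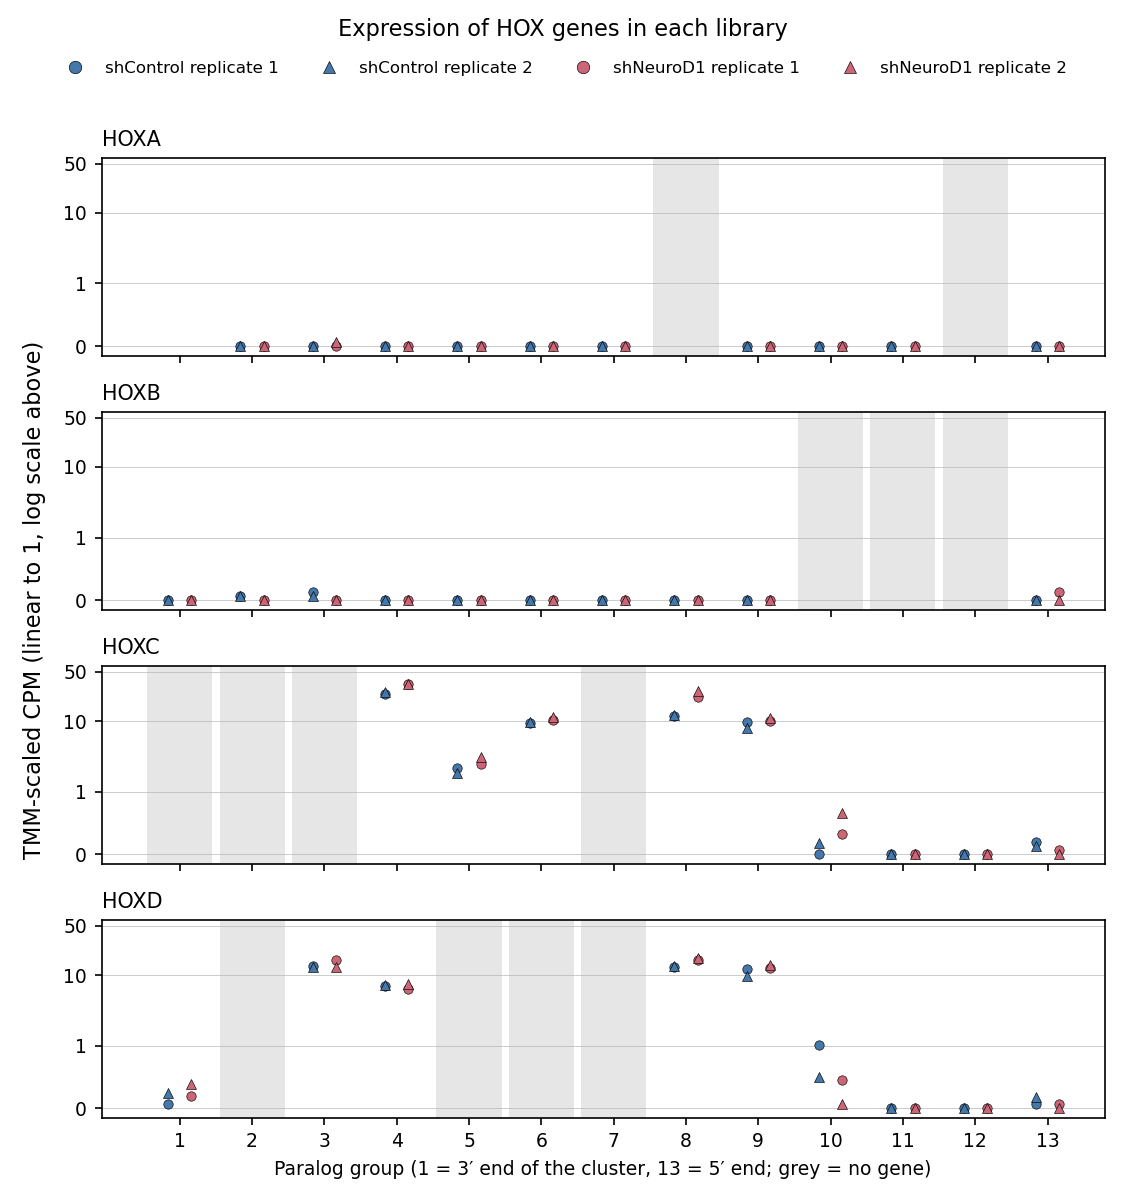
TMM-scaled CPM of 38 HOX genes in each library, with the paralog group on the x axis and a panel for each cluster (circles are replicate 1, triangles replicate 2, blue shControl, red shNeuroD1, grey a paralog group the cluster lacks). The y axis is linear up to 1 CPM and logarithmic above. All values drawn for HOXA and HOXB sit at or near 0, while HOXC and HOXD carry reads at groups 3 to 9 and drop at group 10 in every library.

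Within the expressed clusters the reads stopped at the same place. HOXC (chromosome 12, 53938765 to 54056030, plus strand) had 5 genes with enough counts to test, HOXC4, HOXC5, HOXC6, HOXC8 and HOXC9, which are all of its members of groups 4 to 9. HOXD (chromosome 2, 176092891 to 176190907, plus strand) had 4, HOXD3, HOXD4, HOXD8 and HOXD9, which are all of its members of groups 3 to 9. Over the 4 libraries, group 9 had 1333 counts, group 10 had 49, groups 11 and 12 had 0 and group 13 had 13. HOXC11, HOXC12, HOXD11 and HOXD12 were at 0 in every library.

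The 5 genes of HOXC and HOXD with counts too low to test lay beyond this stretch on either side. HOXC10 had 0 and 3 counts in shControl against 5 and 10 in shNeuroD1. HOXD10 had 15 and 8 counts in shControl against 7 and 1 in shNeuroD1, the highest total among untested members at 31. Reads of these paralogs leaned in opposite ways, and neither gene was tested. HOXC13 had 3 and 2 counts in shControl against 1 and 0 in shNeuroD1, and HOXD13 had 1 and 3 counts in shControl against 1 and 0 in shNeuroD1. HOXD1, at the 3′ end of its cluster, had 1 and 4 counts in shControl against 3 and 6 in shNeuroD1. The counts of each of these genes span 0 to 15 per library, so only large differences could be seen at this depth.

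Levels can be compared between genes only per length, here as mean CPM per kb of exon that no other gene of the table overlaps. In shControl HOXC4 stood highest at 11.2 CPM per kb and HOXC5 lowest at 2.76. Between them came HOXC8 (6.42), HOXD9 (5.86), HOXC9 (5.83), HOXD8 (5.07), HOXD4 (4.89), HOXD3 (4.43) and HOXC6 (3.20), each in CPM per kb. HOXC8 (6.35 and 6.49 CPM per kb in the shControl libraries), HOXD9 (6.48 and 5.24) and HOXC9 (6.43 and 5.22) did not differ beyond their spread, nor did HOXD8 (4.97 and 5.17) and HOXD4 (4.77 and 5.02). In shNeuroD1 HOXC8 stood at 12.7 CPM per kb, next to HOXC4 at 15.01, and the order of the other members ran from HOXD9 at 7.12 to HOXC6 at 3.69 CPM per kb. How reads on shared exons were counted is not given in the sources used here, so these values are less certain for genes that share exons. HOXC5 has 40.1% of its exon bases to itself and HOXC4 82.2%. Among all 17537 genes tested the HOX genes were of middling abundance, from percentile 22.2 for HOXC5 to percentile 59.6 for HOXC4 by mean CPM over the 4 libraries.

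In shNeuroD1 the reads stayed within the same clusters. Of the 9 tested members, edgeR called 3 higher at an adjusted p under 0.05 alone, HOXC8, HOXC4 and HOXD8. That share is near the 26.8% of all genes tested. At the study's thresholds, which ask for a log2 fold change beyond 1 besides an adjusted p under 0.05, edgeR called 0 of 9 lower, where the share over all genes tested was 5.14%, and 0 of 9 higher, where it was 8.79%. At an adjusted p under 0.05 alone, edgeR called 0 of 9 lower against 28.2% of all genes tested and 3 of 9 higher against 26.8%. At an unadjusted p under 0.05 the higher genes were 4, with HOXD9 added, and the lower genes 0. DESeq2 called 0 lower and 2 higher at an adjusted p alone, HOXC8 and HOXC4, against 14.3% of its tested genes, and 0 higher past both thresholds against 5.17%. Scaled by library size alone, edgeR called 6 higher at an adjusted p alone against 34.9% of all genes, and 1 past both thresholds, HOXC8, against 10.6%. In 7 of 9 members both shNeuroD1 libraries lay above both shControl libraries, against 38.3% of all genes tested, and in 2 the groups overlapped. None had both shNeuroD1 libraries below, against 37.7%. The median log2 fold change of the 9 was 0.28, beside 0.01 over all genes tested, and 8 of 9 were above 0 against 50.8% of all genes. Some of the 9 are neighbours that share exon bases, so they are not separate observations.

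**Figure D2:**
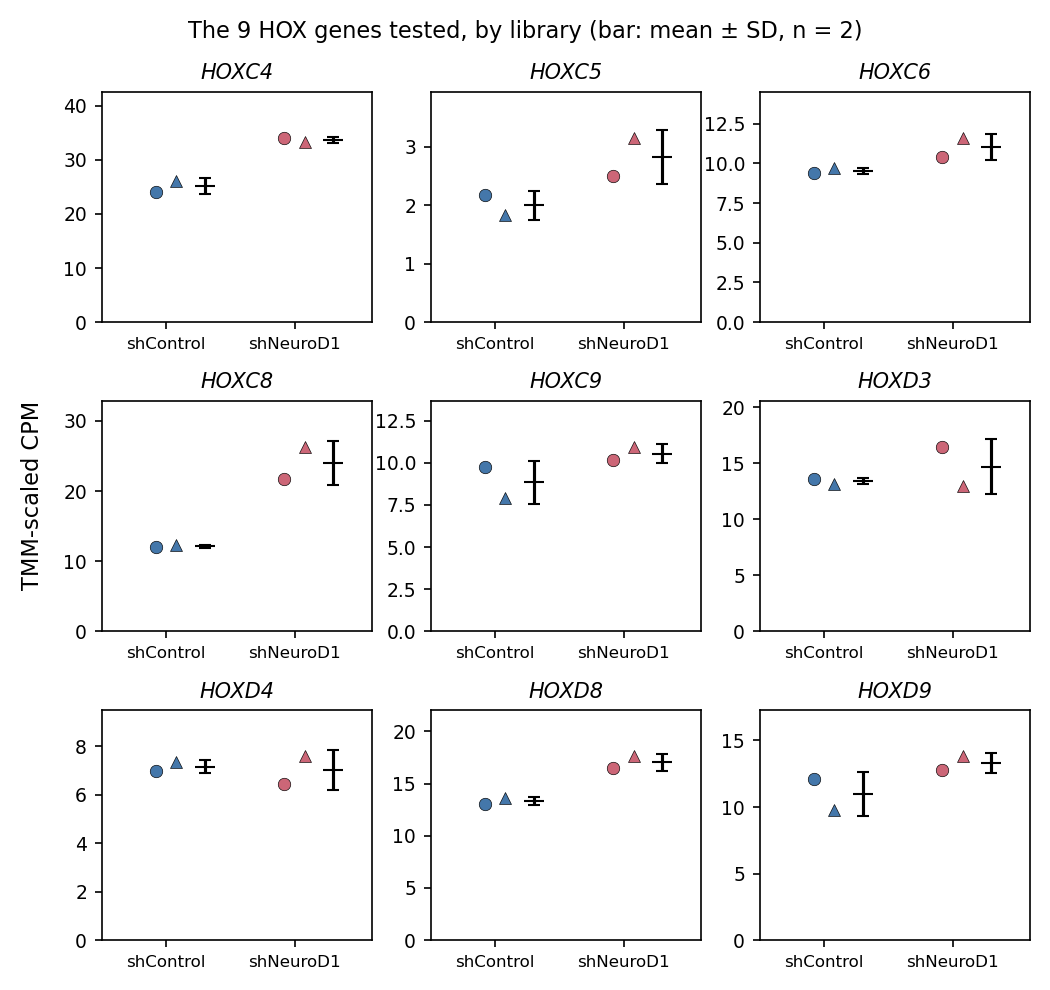
TMM-scaled CPM of the 9 tested HOX genes in the 2 shControl libraries (blue) and the 2 shNeuroD1 libraries (red), with the mean ± SD (n = 2) beside each group, circles for replicate 1 and triangles for replicate 2. The y axes start at 0 and differ between panels. HOXC8 goes from 12.1 to 24.0 CPM, while the groups overlap for HOXD3 and HOXD4.

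HOXC8 (ENSG00000037965, chromosome 12, 54009106 to 54012362, plus strand), a trunk-level gene known for its part in thoracic vertebrae and in the motor neurons of the lower neck, showed the largest difference. Its reads numbered 177 and 195 in shControl and 332 and 401 in shNeuroD1, or 12.0 and 12.3 CPM against 21.8 and 26.3 CPM. Both knockdown libraries stood well above both controls, and replicate 2 of shNeuroD1 was the highest. The mean was 12.1 ± 0.191 CPM (SD, n = 2) in shControl against 24.0 ± 3.18 CPM (SD, n = 2) in shNeuroD1. HOXC8 was 1.98-fold higher (log2 fold change 0.99, SE 0.113, 95% interval 0.76 to 1.22, edgeR adjusted p = 6.2e-09), so it passed the test and fell just short of the fold threshold. Its log2 fold change was 0.84 to 1.11 when each library was left out in turn, and it crossed 1 without shControl replicate 2 or without shNeuroD1 replicate 1. The gene lies inside an intron of HOXC6 and shares no exon base with another gene of the table. The assembled transcript of HOXC8 gave 4.18 and 4.01 FPKM in shControl and 8.27 and 9.31 FPKM in shNeuroD1, again without overlap. This is the gene whose 3′ UTR holds the 2 miR-196 seed matches shown above.

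HOXC4, HOXC5 and HOXC6 are known to be transcribed in part from a shared start. In the annotation HOXC4 and HOXC6 share exon bases with each other. The HOXC5 gene tested here shares no exon base with them, but another annotated entry under the name HOXC5 overlaps exons of all these genes. Reads therefore cannot be assigned to each with certainty. HOXC4 (ENSG00000198353, chromosome 12, 54016931 to 54056030) had 24.1 and 26.2 CPM in shControl and 34.0 and 33.2 CPM in shNeuroD1. All of its knockdown values lay above all of its control values, with a mean of 25.1 ± 1.44 CPM (SD, n = 2) against 33.6 ± 0.580 CPM (SD, n = 2). It rose (log2 fold change 0.42, SE 0.0834, 95% interval 0.25 to 0.59, edgeR adjusted p = 7.4e-05). HOXC5, a gene of the neck that acts with HOXA5 in the motor neurons of the diaphragm, had 2.17 and 1.82 CPM in shControl and 2.49 and 3.15 CPM in shNeuroD1. Its groups did not overlap, but at 29 to 48 reads per library the interval of the log2 fold change ran from -0.07 to 1.08 and the test was not passed (0.50, SE 0.282, edgeR adjusted p = 0.134). HOXC6, a gene of the neck-to-trunk boundary, had 9.41 and 9.68 CPM in shControl and 10.4 and 11.6 CPM in shNeuroD1. Its log2 fold change was 0.21 (SE 0.138, 95% interval -0.07 to 0.49, edgeR adjusted p = 0.21).

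HOXC9 (chromosome 12, 53994895 to 54003337), the gene at the 5′ edge of the expressed stretch of HOXC, had 9.75 and 7.92 CPM in shControl and 10.2 and 10.9 CPM in shNeuroD1. The knockdown values were the higher ones, though the nearest pair of libraries differed by less than the spread within shControl. Its log2 fold change was 0.26 (SE 0.145, 95% interval -0.04 to 0.56, edgeR adjusted p = 0.13), and a log2 rise of more than 0.56 lay outside that interval. HOXC9 shares exon bases with HOXC6 and with the antisense gene HOXC-AS2, and whether counting used the strand is not given in the sources used here.

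Summed over its 9 genes, HOXC had 57.6 and 58.2 CPM in shControl and 79.3 and 85.8 CPM in shNeuroD1, a ratio of means of 1.43. Leaving out HOXC8 the sums were 45.7 and 45.9 CPM against 57.5 and 59.6 CPM, a ratio of 1.28. The groups did not overlap in either sum.

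**Figure D3:**
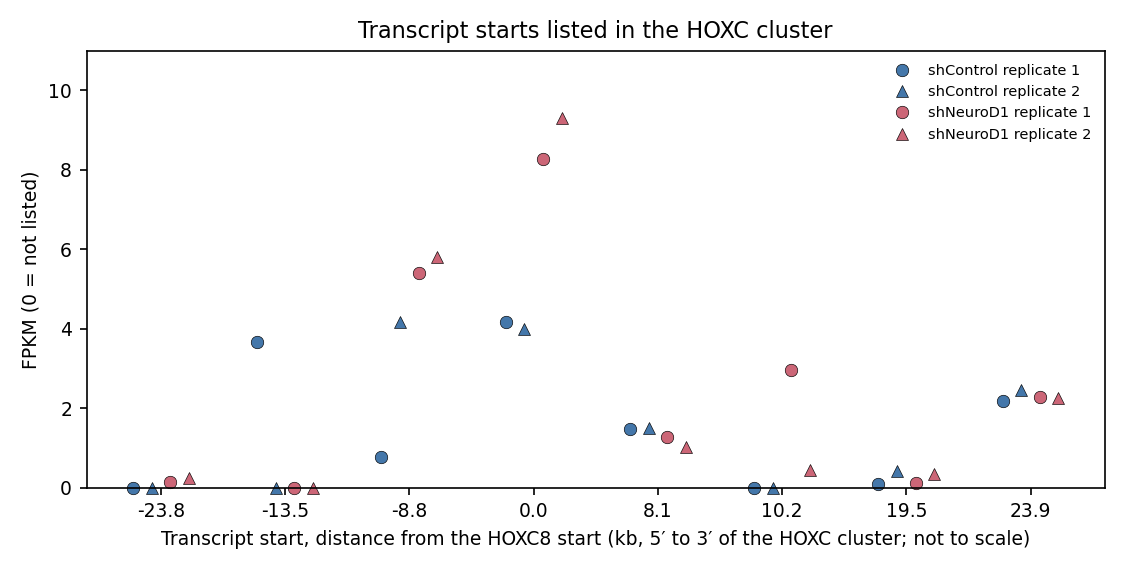
FPKM of every transcript start listed in the HOXC cluster, by its distance in kb from the HOXC8 start (x axis, in order and not to scale), in the 4 libraries (blue shControl, red shNeuroD1, circles replicate 1, triangles replicate 2, 0 where a table does not list the start). The HOXC8 start at 0.0 kb separates the groups, with about 4 FPKM in shControl and over 8 FPKM in shNeuroD1, while the start in HOXC5 at 23.9 kb does not.

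The transcript starts show where in HOXC the reads began. The starts other than that of HOXC8 were assigned by the assembly to a merged locus labelled HOXC4. That locus takes in HOXC4, HOXC5, HOXC6 and HOXC9 and a start in HOXC10. The end of that locus had 10.8 and 10.4 FPKM in shControl and 15.7 and 15.1 FPKM in shNeuroD1. Its start within HOXC5, 23.9 kb downstream of the HOXC8 start, was level at 2.19 and 2.46 FPKM in shControl and 2.28 and 2.27 FPKM in shNeuroD1. The start at -8.8 kb, upstream of HOXC8 in the region of HOXC9 and HOXC6, had 0.785 and 4.18 FPKM in shControl and 5.42 and 5.82 FPKM in shNeuroD1. shControl replicate 1 was the low library there and alone listed a start at -13.5 kb, with 3.68 FPKM, so the assembly placed this start differently between libraries. A start 8.1 kb downstream, at the 5′ end of HOXC4, went the other way, with 1.49 and 1.52 FPKM in shControl and 1.29 and 1.03 FPKM in shNeuroD1, without overlap. A start 10.2 kb downstream, within the HOXC4 gene, was listed only in the shNeuroD1 libraries, at 2.96 and 0.444 FPKM. A start in HOXC10 at -23.8 kb was likewise listed only in shNeuroD1, at 0.142 and 0.235 FPKM. A start that a table does not list can be a failed assembly and was not tested.

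In HOXD the differences were smaller. HOXD8 (ENSG00000175879, chromosome 2, 176129694 to 176132695), the paralog of HOXC8, had 13.1 and 13.6 CPM in shControl and 16.5 and 17.6 CPM in shNeuroD1. The groups did not overlap, with means of 13.3 ± 0.358 CPM (SD, n = 2) and 17.0 ± 0.823 CPM (SD, n = 2). HOXD8 rose by edgeR (log2 fold change 0.36, SE 0.114, 95% interval 0.12 to 0.59, adjusted p = 0.00912). It did not pass in DESeq2 (0.34, adjusted p = 0.177). Both FPKM fits lost the call too, at 0.27 with pseudocount 1 (limma adjusted p = 0.294) and 0.31 with 0.1 (limma adjusted p = 0.291). In edgeR the call was also lost without shControl replicate 1 (log2 fold change 0.33), shControl replicate 2 (0.38) or shNeuroD1 replicate 2 (0.30). Without shNeuroD1 replicate 1 the log2 fold change of HOXD8 was 0.40. Between its 2 transcript starts, the upstream start had 3.22 and 3.22 FPKM in shControl and 2.74 and 3.52 FPKM in shNeuroD1. The other start, a few bases downstream, had 2.17 and 3.01 FPKM in shControl and 4.12 and 4.0 FPKM in shNeuroD1, without overlap.

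HOXD9 (chromosome 2, 176122720 to 176124937), which with its 5′ neighbour helps to pattern the hindlimb level of the spinal cord, had 12.1 and 9.81 CPM in shControl and 12.8 and 13.8 CPM in shNeuroD1. Both knockdown libraries were the higher ones, and the log2 fold change of 0.28 (SE 0.133, 95% interval 0.01 to 0.56) did not pass after adjustment (edgeR adjusted p = 0.0713). HOXD9 transcripts gave 4.87 and 3.96 FPKM in shControl and 5.42 and 5.09 FPKM in shNeuroD1.

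HOXD3 and HOXD4, genes of the neck and hindbrain, showed overlapping groups. HOXD3 (chromosome 2, 176136612 to 176173102) had 13.6 and 13.2 CPM in shControl and 16.5 and 12.97 CPM in shNeuroD1, so that shNeuroD1 replicate 1 alone stood higher. Its log2 fold change was 0.14 (95% interval -0.12 to 0.39, edgeR adjusted p = 0.377) and -0.05 without that library. HOXD4 (chromosome 2, 176151222 to 176153226) had 6.98 and 7.36 CPM in shControl and 6.43 and 7.60 CPM in shNeuroD1. Its log2 fold change was -0.03 (95% interval -0.37 to 0.31, edgeR adjusted p = 0.892), and its sign turned in several alternatives. The summed HOXD level was 46.9 and 44.9 CPM in shControl and 52.9 and 52.5 CPM in shNeuroD1, a ratio of means of 1.15.

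**Figure D4:**
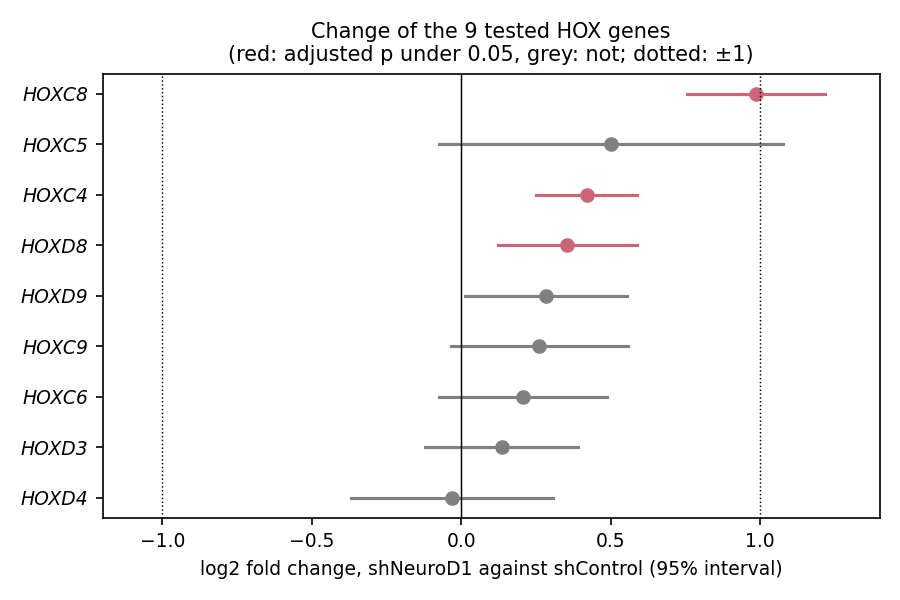
Log2 fold change of the 9 tested HOX genes, shNeuroD1 against shControl (x axis), with 95% intervals from the edgeR fit, red where the adjusted p was under 0.05 and grey where it was not, and dotted lines at -1 and 1. The interval of HOXC8, 0.76 to 1.22, reaches across the line at 1 and lies above the intervals of all other members but HOXC5.

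The intervals of the paralog pairs can be set side by side, although the difference between genes was not tested. In group 8, HOXC8 had 0.99 (0.76 to 1.22) and HOXD8 0.36 (0.12 to 0.59), as log2 fold changes with 95% intervals. In group 9, HOXC9 had 0.26 (-0.04 to 0.56) and HOXD9 0.28 (0.01 to 0.56). In group 4, HOXC4 had 0.42 (0.25 to 0.59) and HOXD4 -0.03 (-0.37 to 0.31). The intervals of group 8 do not overlap, those of group 4 overlap from 0.25 to 0.31, and those of group 9 nearly coincide.

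Of the 58 other genes inside the clusters with a row of counts, nearly all of them noncoding, 4 had enough counts to test, and 38 had exon bases of their own, 26 of which were at 0 in every library. Of the 4 tested, 0 were called at an adjusted p under 0.05 in edgeR or DESeq2 and 0 at an unadjusted p under 0.05 in edgeR. With library size alone 1 was higher, and without shNeuroD1 replicate 2 1 was lower, at an adjusted p alone. HAGLR, a noncoding RNA gene antisense to the HOXD3 region, had 287 and 331 counts in shControl against 351 and 341 in shNeuroD1 (log2 fold change 0.17, edgeR adjusted p = 0.13). HOXD-AS2, whose exons overlap HOXD3 on the other strand, had 116 and 80 counts in shControl against 56 and 95 in shNeuroD1 (log2 fold change -0.37, edgeR adjusted p = 0.154). The row of the MIR10B precursor, which lies between HOXD8 and HOXD4, was flat at 14 and 15 counts in both groups. HOXC-AS1, antisense within the span of HOXC9 and too low to test, had 1 and 2 counts in shControl against 13 and 9 in shNeuroD1.

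NeuroD1 binds E-boxes, for which CAGATG and CAGCTG are the usual letters, and the RefSeq promoter windows (250 bases before to 50 after a gene's start, GRCh38.p14) were searched for both on both strands. CAGATG was in 14.7% of all 35116 windows and in 2 of the 27 windows of HOX genes, none of them of a tested member. CAGCTG was in 17.95% of all windows and in 7 of the 27. Among tested members 5 had a window, and CAGCTG was in the window that HOXC4 and HOXC5 share, 117 bases before the start. It is shown because HOXC4 rose, with the motif in capitals (chr12:54016761-54016786, plus strand).
HOXC4 and HOXC5 promoter: agaaaatttaCAGCTGagtaataaaa
The tested members HOXC6, HOXC8, HOXC9 and HOXD9 were not in the table of windows. A match is not a binding site.

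The DNA-binding partners of HOX proteins were all expressed, and their calls went in both directions. All 9 of the TALE genes (PBX, MEIS and PKNOX) were tested, and at an adjusted p under 0.05 alone 3 were lower and 2 higher, beside 28.2% and 26.8% of all genes tested, with a median log2 fold change of -0.08. These shares are near the background. MEIS2 was the only member past both thresholds in edgeR. In limma on log2(FPKM + 0.1), which held 7 of the 9 genes, MEIS3 passed them and MEIS2 was not called. Whether MEIS2 was among the 7 is not given here. MEIS2 had 7.65 and 7.98 CPM in shControl and 2.10 and 3.15 CPM in shNeuroD1, and it fell past both thresholds in every fit on counts (log2 fold change -1.57, SE 0.208, edgeR adjusted p = 1.03e-07). PBX3 fell from 28.9 and 30.9 CPM to 16.3 and 16.9 CPM (log2 fold change -0.85, edgeR adjusted p = 3.31e-09) and PKNOX2 had a log2 fold change of -0.28 (edgeR adjusted p = 0.0314). MEIS3 rose from 89.4 and 98.3 CPM to 155.1 and 150.9 CPM (log2 fold change 0.70, edgeR adjusted p = 3.2e-13) and PBX2 had a log2 fold change of 0.24 (edgeR adjusted p = 8.31e-05).

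The most abundant cofactor hardly differed. MEIS1 had 538 and 552 CPM in shControl and 517 and 516 CPM in shNeuroD1 (log2 fold change -0.08, 95% interval -0.16 to 0.00, edgeR adjusted p = 0.104). PBX4 had a log2 fold change of -0.41 (edgeR adjusted p = 0.169) and PKNOX1 of 0.00 (edgeR adjusted p = 0.976). Among related homeobox genes outside the clusters (EVX, MNX, GBX, MEOX, CDX, GSX and PDX1) only 1 of 13 was tested, GBX2, with a log2 fold change of -0.76 (edgeR adjusted p = 0.0836).

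**Figure D5:**
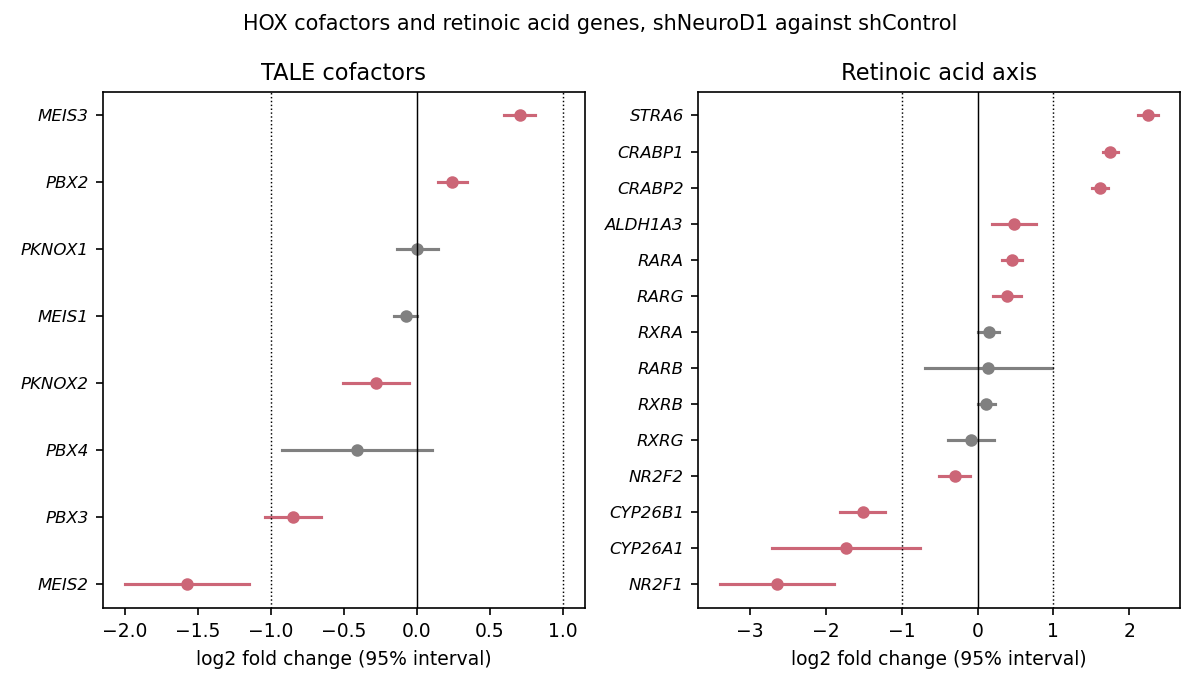
Log2 fold change, shNeuroD1 against shControl (x axes), with 95% intervals from the edgeR fit for 8 TALE cofactors (left) and 14 tested genes of the retinoic acid axis (right, ALDH1A1 left out because it was at 0 in shControl), red where the adjusted p was under 0.05. MEIS2 at -1.57 and MEIS3 at 0.70 mark the ends on the left, and NR2F1 at -2.65 and STRA6 at 2.25 on the right.

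Genes of the retinoic acid axis, the signal known to open HOX clusters, included carriers and the uptake receptor that were higher and degrading enzymes that were lower. Of 19 genes 15 were tested, and 3 were lower and 4 higher past both thresholds, beside 5.14% and 8.79% of all genes tested. At an adjusted p alone 4 were lower and 7 higher, beside 28.2% and 26.8%, and the median log2 fold change was 0.15. STRA6, the membrane receptor that takes up retinol, had 28.6 and 26.2 CPM in shControl and 133.0 and 126.6 CPM in shNeuroD1 (log2 fold change 2.25, SE 0.0636, edgeR adjusted p = 6.11e-24). CRABP1 and CRABP2 carry retinoic acid inside the cell. CRABP1 rose from 73.9 and 71.4 CPM to 246.7 and 242.1 CPM (log2 fold change 1.75, edgeR adjusted p = 4.27e-24), and CRABP2 from 59.2 and 58.7 CPM to 179.2 and 180.3 CPM (1.61, edgeR adjusted p = 1.55e-22).

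ALDH1A1, a retinaldehyde dehydrogenase that makes retinoic acid, had 0 counts in each shControl library and 20 and 22 in shNeuroD1, at least 7.03-fold higher against a floor of 3 counts per shControl library (edgeR adjusted p = 6.21e-07). CYP26B1, which degrades retinoic acid, fell from 16.9 and 14.9 CPM to 6.10 and 4.98 CPM (log2 fold change -1.52, edgeR adjusted p = 1.87e-10). CYP26A1, its relative and a known retinoic acid target, had 22 and 22 counts in shControl against 9 and 4 in shNeuroD1 (log2 fold change -1.73, edgeR adjusted p = 0.00275), a call that DESeq2 and 3 of the 4 fits without a library did not make. NR2F1, an orphan nuclear receptor also known as a retinoic acid target, fell from 51 and 51 counts to 7 and 9 (log2 fold change -2.65, edgeR adjusted p = 2.56e-07). The tested receptor genes RARA and RARG rose by less, with log2 fold changes of 0.46 and 0.39 (edgeR adjusted p = 3.73e-07 and 0.000607), and RARB, at 14 to 17 counts per library, had 0.14 (95% interval -0.70 to 0.98). The part of these genes in the HOX values was not tested.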

How the data were processed

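The authors deposited raw read counts per Ensembl gene for 4 libraries of polyadenylated RNA, and FPKM values of transcript starts, ends and splicing events for each library. The submitters' processing notes name cutadapt 1.9.1, HISAT2 2.0.1, HTSeq 0.6.1, DESeq2 and hg38. The annotation release and the use of strand in counting are not given in the sources used here. Gene coordinates are those of GENCODE 29 on GRCh38 (58394 of 60612 genes matched, 60401 with a symbol).

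Groups and replicate numbers came from the sample titles. Counts were tested in edgeR 4.0.16 (R 4.3.3) by the two-sided quasi-likelihood F test with TMM scaling and filterByExpr (minimum count 10), which kept 17537 genes, with Benjamini-Hochberg adjustment over all of them. The standard error is the size of the log2 fold change over the square root of F. The alternatives were DESeq2 1.42.0, DESeq2 size factors, library size alone, no filter, a mean of at least 1 CPM, the replicate number as a block, each library left out, and limma 3.58.1 on log2(FPKM + 1) and log2(FPKM + 0.1), with a gene's FPKM summed over its starts and a mean of at least 1 FPKM. FPKM fits excluded HOXC4, whose locus is merged with its neighbours. The edgeR, DESeq2 and limma steps were tested on simulated data. Rows without a gene held 0% of counts. The authors' own fold changes and p-values were not used.

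Members and lists were chosen with earlier results of these data known, so no test was run over a list. The genes named are NEUROD1, every tested HOX gene, HOX genes that failed the filter by their counts, tested TALE genes, and genes of the other lists past both thresholds. 3 genes are not reported here. Other genes named, and the microRNA seeds searched, were chosen after the values were seen. Floors of counts cover counting error only, and 95% intervals come from the edgeR fit.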

Additional observations from a re-analysis of the deposited data

How the results depend on the processing

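At the study's thresholds no HOX gene was lower under any alternative, and 0 to 1 was higher. HOXC8 was that gene with library size alone (1 called, log2 fold change 1.10), with limma on log2(FPKM + 0.1) (1 called), and without shControl replicate 2 or shNeuroD1 replicate 1 (range over libraries left out 0 to 1). It passed an adjusted p of 0.05 in every fit. At an adjusted p alone 6 of 9 HOX genes were higher with library size alone, against 34.9% of all genes. In each FPKM fit, which held 5 HOX genes, 1 was higher, and the share of all genes there is not given here. Library size alone moved the median of all genes to 0.12. HOXD4 turned sign with library size alone (0.081) and in the FPKM fits (0.285 with pseudocount 1 and 0.356 with 0.1), and it ran from -0.159 to 0.082 over libraries left out, with 0.0087 without shControl replicate 2. HOXD3 ran from -0.049 to 0.295 and turned without shNeuroD1 replicate 1. The cause was not tested. With library size alone, at an adjusted p alone, 2 of 9 TALE genes were lower and 2 higher. Of the retinoic acid genes 3 of 15 were lower and 9 higher. The share of all genes higher under this scaling was 34.9%, and the share lower is not given here. MEIS2 was called in all count fits and in neither FPKM fit, and MEIS3 was called with pseudocount 0.1. The FPKM fits held 7 of the 9 TALE genes, and MEIS2 may not have been among them. Of the values of single genes under all alternatives 85 kept their call and direction and 6 reversed in sign. Another 6 lost an adjusted p under 0.05, all of them values of HOXD8, and 3 gained one. Deviations of libraries with the same number were hardly correlated (0.0192 over genes), and the replicate block gave 3 higher genes at an adjusted p alone and 0 past both thresholds. With a library left out the lone library of its group is assumed to vary like the others. With 2 libraries a group, HOXC5, at 29 to 48 reads per library, had an interval over 1 log2 unit wide.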

Other observations

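Trithorax genes, a list of histone H3 methyltransferases, their core subunits and the demethylases KDM6A and KDM6B, were all tested and none of 11 passed both thresholds. At an adjusted p under 0.05 in edgeR 3 were lower and 4 higher, shares near the 28.2% and 26.8% of all genes tested, with a median log2 fold change of 0.06. KDM6B, a demethylase that removes the repressive mark of Polycomb, had 62.5 and 60.2 CPM in shControl and 111.7 and 110.2 CPM in shNeuroD1 (log2 fold change 0.86, edgeR adjusted p = 9.77e-15). The methyltransferase genes KMT2B, KMT2C and KMT2D had log2 fold changes of 0.19, 0.54 and 0.25, and the shared core subunit genes ASH2L, WDR5 and RBBP5 had -0.38, -0.27 and -0.26. Not called in edgeR were the methyltransferase gene KMT2A (0.06) and the core subunit gene DPY30 (-0.08). The same held for MEN1 (0.06) and KDM6A (0.18). The genes of this list were named after their values were seen.

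Protein-coding genes flanking the clusters, some of them far from the HOX genes, changed in both directions, with more lower than higher in edgeR. Of the 40 nearest (5 on each side of each cluster) 33 were tested, and at an adjusted p under 0.05 alone 17 were lower and 6 higher, beside 28.2% and 26.8% of all genes tested, with a median log2 fold change of -0.15. With library size alone 12 of the 33 were lower and 9 higher, where 34.9% of all genes were higher. Each FPKM fit held only 28 of the 33, of which 0 were lower and 1 higher. NFE2L2 and CREB5 stood past both thresholds. NFE2L2, an antioxidant response factor beyond HOXD (chromosome 2, 177227595 to 177392697), fell from 165.0 and 158.1 CPM to 71.8 and 73.3 CPM (log2 fold change -1.15, edgeR adjusted p = 8.78e-19). CREB5, a transcription factor beyond HOXA (chromosome 7, 28299321 to 28825894), rose from 13.2 and 14.8 CPM to 33.4 and 32.8 CPM (log2 fold change 1.24, edgeR adjusted p = 9.69e-13).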
